A study of Homo sapiens with 9 samples.

Results

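Described here are 43 genes of the cell cycle and of DNA replication, picked by symbol from the 60612 genes of the deposited expression table. No cut on measured values was used, but the choice was made with earlier results of these data known. The 43 genes were grouped by role into 12 replication genes, 17 mitosis genes, 6 cyclins and kinases of the G1/S step, 4 genes of the G2/M step (CDK1 and its cyclins) and 4 transcription factors. Of the 43 genes, 42 reached an FPKM (fragments per kilobase of transcript and a fixed number of sequenced fragments) of at least 1 in at least 3 of 9 libraries and were tested, among 12586 genes tested in all. The exception was CENPE, a kinetochore motor, which ranged from 0.603 to 1.39 FPKM and is given as values only.

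RNA sequencing was done on MV4-11, a human acute myeloid leukaemia cell line that carries an MLL fusion, in 9 libraries collected at 72 h. The 3 libraries whose titles start with KO1 are labelled as wild-type cells given vehicle. The 3 NC1 libraries are labelled as wild-type cells given decitabine, a cytosine analogue that is incorporated into DNA and traps DNA methyltransferases, and the 3 NCO libraries as cells with a knockdown of the lipid receptor gene CD36 given decitabine. All groups share the cell line and the time, no group is labelled as a knockdown given vehicle, and the sources used here do not state the dose, the means of knockdown or whether replicates were separate cultures, so p-values measure only the spread between these libraries.

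A dividing cell licenses its replication origins in G1 by loading the MCM helicase with the help of CDC6 and CDT1, copies its DNA in S phase, and separates the copies in mitosis under the control of CDK1, the Aurora and Polo kinases and the spindle checkpoint. Replication genes are largely driven by E2F factors at the G1/S step, whereas mitosis genes are largely driven later by the MuvB complex with MYBL2 and FOXM1, through a promoter element called the CHR that often lies near CCAAT boxes. Decitabine acts on cells that replicate their DNA, since only these incorporate it.

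The targeted gene did not follow its label. CD36 (ENSG00000135218, chromosome 7, 80369575 to 80679277, GRCh38) was at 0.134, 0.144 and 0.0997 FPKM in KO1, at 2.23, 1.78 and 2.52 in NC1 and at 2.31, 2.27 and 2.88 in NCO. Its lowest values thus stood in KO1, labelled wild type, and NCO was not below NC1 (log2 difference 0.14, adjusted p = 0.436), so groups are named by their title stem and each direction is one between stems. The stem KO1 itself reads as a knockout; whether labels were exchanged between KO1 and NCO was not tested, and what NC1 against KO1 measures depends on it. FPKM sums ranged from 493061 to 530097 per library and read depth is unknown. Mitochondrially encoded genes took 14.5 to 15.3% of the sum in KO1, 14.5 to 17.6% in NC1 and 17.4 to 18.5% in NCO. All 8 myeloid markers reached the filter, with summed levels of 394 to 408 FPKM in KO1, 564 to 606 in NC1 and 517 to 543 in NCO. Of the other marker lists, 5 of 6 genes of MLL-fusion leukaemia reached it (MEIS1 did not), with sums of 128 to 132 FPKM in KO1, 124 to 130 in NC1 and 141 to 149 in NCO. So did 0 of 4 erythroid, 0 of 5 lymphoid and 2 of 7 epithelial or stromal genes, of which 3 erythroid and 2 lymphoid ones were listed at 0 in all 9 libraries and whose lists summed to at most 0.437, 1.25 and 3.22 FPKM. The part of mitochondrial share and of myeloid marker level in the results below was not tested. In RNA from whole cultures, fewer cells in a cycle phase and less RNA per cell in that phase cannot be told apart.

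Promoters of these genes differ in sequence by role. The RefSeq promoter table (build GRCh38.p14) held 33 of the 43 genes, and the 250 bases before each start were searched on both strands for 3 kinds of motif. The CHR was searched as the letters TTTGAA and with its variant TTCGAA, and the CCAAT box as CCAAT. An E2F site was searched as the letters TTCCCGC, as the variant TTGGCGC, as the variant TTCGCGC and as the variant TTGCCGC. In these promoters 1 pair of matches to different motifs overlapped. A CHR match was held by 8 of 13 mitosis promoters and 1 of 10 replication promoters, against 14.6% of all 27305 promoters in the table and 9.26% of those of tested genes. An E2F match was held by 7 of 10 replication promoters and 1 of 13 mitosis promoters, against 11% of all and 17.8% of those of tested genes. CCAAT matches were held by 11 of 13 mitosis and 7 of 10 replication promoters, against 33% of all. A match is a run of letters and not a shown binding site. The sequences printed here are those of the gene with the smallest adjusted p of each role in the comparison of NC1 with KO1, and of TOP2A, the gene with a CHR match that had the smallest one; capitals mark the matches to the 3 motifs on either strand, and each runs 5′ to 3′ toward the gene. They lie at chr18:657403-657652, plus strand (TYMS), chr17:8210226-8210475, minus strand (AURKB), chr17:40417897-40418146, minus strand (TOP2A), chr12:57752311-57752560, minus strand (CDK4), chr5:69166900-69167149, plus strand (CCNB1) and chr20:33686386-33686635, minus strand (E2F1). The AURKB and CDK4 windows lie inside the gene as the expression table draws it, which starts further upstream.
TYMS: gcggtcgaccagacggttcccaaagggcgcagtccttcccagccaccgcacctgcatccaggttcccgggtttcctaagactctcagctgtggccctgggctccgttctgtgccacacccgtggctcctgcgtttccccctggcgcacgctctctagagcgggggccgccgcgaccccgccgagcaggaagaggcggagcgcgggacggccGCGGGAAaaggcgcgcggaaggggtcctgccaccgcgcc
AURKB: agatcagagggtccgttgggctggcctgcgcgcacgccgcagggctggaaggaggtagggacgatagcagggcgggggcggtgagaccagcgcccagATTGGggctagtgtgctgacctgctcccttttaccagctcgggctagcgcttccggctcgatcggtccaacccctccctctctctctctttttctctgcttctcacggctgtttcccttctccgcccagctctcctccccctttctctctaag
TOP2A: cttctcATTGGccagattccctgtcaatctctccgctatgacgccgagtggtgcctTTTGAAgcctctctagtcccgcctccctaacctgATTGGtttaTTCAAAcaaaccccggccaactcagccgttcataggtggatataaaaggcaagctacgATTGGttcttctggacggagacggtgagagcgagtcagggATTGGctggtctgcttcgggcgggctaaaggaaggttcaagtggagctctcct
CDK4: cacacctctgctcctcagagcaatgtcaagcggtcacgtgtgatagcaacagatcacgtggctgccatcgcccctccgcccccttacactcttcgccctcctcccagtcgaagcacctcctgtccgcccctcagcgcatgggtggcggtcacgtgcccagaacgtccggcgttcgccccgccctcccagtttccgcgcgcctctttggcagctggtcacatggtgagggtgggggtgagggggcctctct
CCNB1: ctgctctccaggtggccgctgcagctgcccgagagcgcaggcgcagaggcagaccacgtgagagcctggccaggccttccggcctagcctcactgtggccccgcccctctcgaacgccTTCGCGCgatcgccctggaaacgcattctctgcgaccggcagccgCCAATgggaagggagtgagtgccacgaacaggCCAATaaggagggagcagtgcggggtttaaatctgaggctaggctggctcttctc
E2F1: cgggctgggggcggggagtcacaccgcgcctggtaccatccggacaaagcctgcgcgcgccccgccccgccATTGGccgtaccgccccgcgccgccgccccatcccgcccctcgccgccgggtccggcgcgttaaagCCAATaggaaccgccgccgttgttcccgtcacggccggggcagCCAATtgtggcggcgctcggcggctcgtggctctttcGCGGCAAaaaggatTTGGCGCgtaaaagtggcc
TYMS held 1 E2F match and no other, TOP2A held 2 CHR and 4 CCAAT matches, AURKB held 1 CCAAT match, CCNB1 held 1 E2F and 2 CCAAT matches, E2F1 held 2 E2F and 3 CCAAT matches, and CDK4 held none of the 3 motifs in this window.

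Levels of the 43 genes spanned a wide range. Since FPKM is a level per length, genes can be set beside each other. The highest was CDC20, the activator of the anaphase-promoting complex, at 302, 304 and 294 FPKM in KO1, followed by the licensing factor CDT1 with a KO1 mean of 183 ± 8.11 (SD, n = 3), the transcription factor MYBL2 with 131 ± 2.8, and CDK4, CCND3 and MCM3 with means from 109 to 111. Lowest in KO1 were the D-type cyclin CCND2 (0.746 ± 0.101 FPKM), CENPE (0.852 ± 0.103) and the E-type cyclin CCNE2 (2.42 ± 0.362). Spread within groups was small, with a median coefficient of variation over the 43 genes of 4.26% in KO1, 6.27% in NC1 and 4.5% in NCO. The widest spreads were those of low genes, 18.9% for CENPF in KO1, 22.9% for CENPE in NC1 and 25.3% for CCNE2 in NCO.

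**Figure D1:**
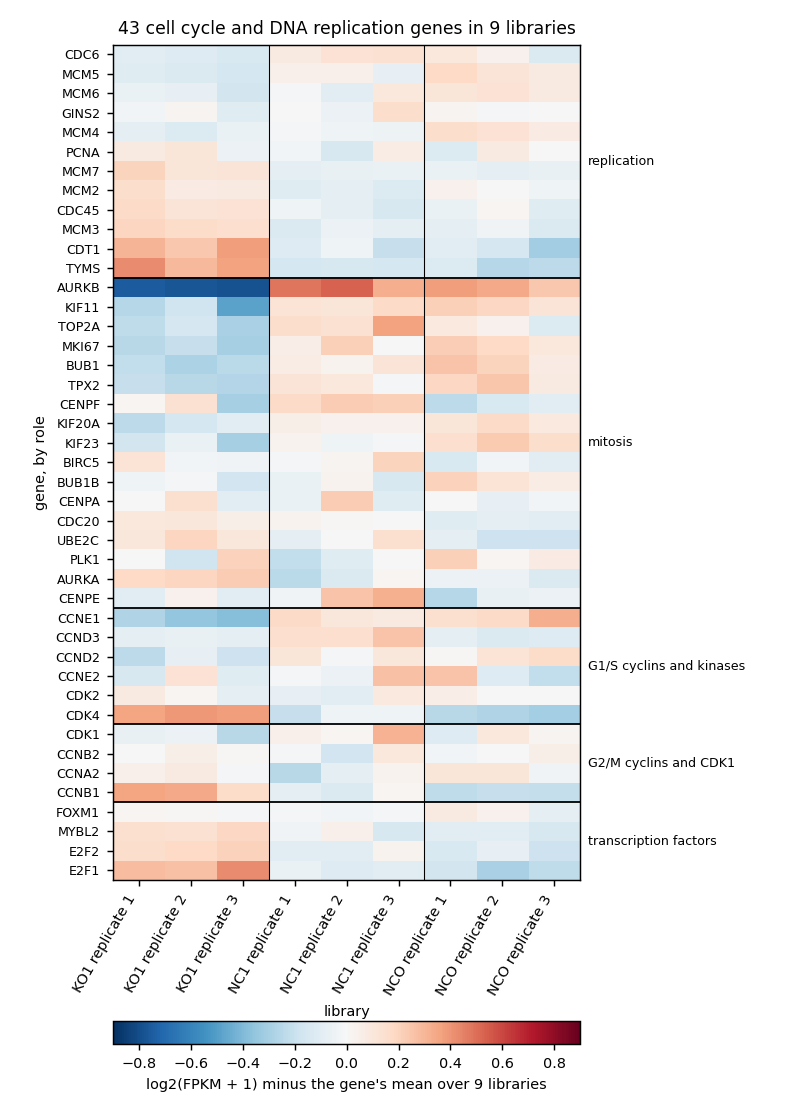
Each line is 1 of the 43 genes, ordered by role, and each column 1 of the 9 libraries; colour gives log2(FPKM + 1) minus the gene's mean over the 9 libraries, blue below and red above that mean. AURKB shows the widest change, from 23.5 FPKM on average in KO1 to 56 in NC1 and 51.3 in NCO, while TYMS, CDT1, CDK4 and E2F1 are highest in KO1.

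NC1 against KO1 addresses, by the labels, the response of wild-type cells to decitabine. Of 8 replication genes called 6 were lower in NC1, and of 8 mitosis genes called 7 were higher, so the 43 genes did not move as a block; the 59 other replication genes listed further on had 13 higher and 9 lower. Of the 42 tested, 12 were higher, 12 lower and 18 not called at an adjusted p under 0.05, which is 57.1% called against 47.2% of all genes tested (28.9% higher and 18.3% lower). The median log2 difference was 0.01 over the 42 genes and 0.06 over all genes. Here and below, log2 differences are between group means of log2(FPKM + 1), a scale that understates changes of low genes. Changes were small: ratios of group mean FPKM ran from 1.11 to 2.38 for the higher genes (median 1.25) and from 0.697 to 0.871 for the lower ones (median 0.812), and AURKB was the 1 gene past 2-fold. KO1 and NC1 values did not overlap in 30 of the 42 genes, against 56.5% of all genes. How libraries are scaled to each other moved the split, which was 9 higher and 15 lower when libraries were scaled by a trimmed mean, 11 and 13 for quantile-normalised values and 17 and 11 without the mitochondrial genes; over all genes the share of calls that were higher was 61.3%, 49%, 47.1% and 72.3% in the same order.

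Among the 12 replication genes, 6 were lower in NC1 and 2 were higher, with a median log2 difference of -0.15; each of the 3 other scalings also had 6 lower, with 1 to 4 higher. Thymidylate synthase, TYMS (ENSG00000176890, chromosome 18, 657653 to 673578, plus strand), which makes the thymidine nucleotide for DNA synthesis, was at 79.4, 72.4 and 75.9 FPKM in KO1, at 52.7, 53.3 and 52.6 in NC1 and at 54.1, 49.3 and 49.9 in NCO. Every KO1 library lay above every other library, and the NC1 and NCO libraries overlapped. NC1 was lower by -0.51 on the log2 scale (95% interval -0.62 to -0.4, adjusted p = 1.14e-05), a ratio of 0.697. On the opposite strand TYMS is overlapped over 3261 bases by ENOSF1 (8.52 FPKM in KO1 and 8.15 in NC1) and over 688 by TYMSOS (4.61 and 4.7); whether the values use strand is not given in the sources used here, so reads in the overlap cannot be told apart.

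The licensing step was uneven. CDT1 (ENSG00000167513, chromosome 16, 88803789 to 88809258), which loads the MCM helicase, gave 183, 175 and 192 FPKM in KO1 and 136, 144 and 128 in NC1. The groups did not overlap, and the log2 difference was -0.43 (SE 0.06, adjusted p = 0.000231). Its partner CDC6 went the other way, from 11.7, 11.5 and 11.3 FPKM to 13.3, 13.8 and 13.9 (log2 difference 0.23, adjusted p = 0.0144), again without overlap. CDC45, which joins the active helicase, fell from 22.4 ± 0.467 to 19 ± 0.72 FPKM (adjusted p = 0.00535), whereas GINS2, of the same helicase complex, was at 13.8 ± 0.624 and 14.6 ± 1.19 (adjusted p = 0.41) and PCNA, the sliding clamp of the polymerases, at 43.8 ± 2.65 and 41.4 ± 3.11 (adjusted p = 0.371).

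The 6 subunits of the MCM helicase ring did not move together. MCM3 (109 ± 1.41 to 91.1 ± 2.34 FPKM, adjusted p = 0.00045), MCM7 (99.9 ± 3.75 to 86.2 ± 0.692, adjusted p = 0.00149) and MCM2 (72.2 ± 2.36 to 62.3 ± 0.984, adjusted p = 0.00216) were lower in NC1. MCM5 was higher (47 ± 0.82 to 51.9 ± 2.58, adjusted p = 0.0359), a call that was lost in 10 of 17 alternative analyses, while MCM4 (68.6 ± 1.54 and 71.4 ± 0.748) and MCM6 (29.4 ± 1.25 and 31.4 ± 2.25) were not called. Summed over the 6 subunits, the KO1 libraries gave 437, 421 and 421 FPKM, the NC1 libraries 393, 397 and 393 and the NCO libraries 422, 418 and 405. The most abundant subunit exceeded the least abundant one 3.72-fold in KO1, 2.9-fold in NC1 and 2.69-fold in NCO. MCM7 shares 392 bases with AP4M1 on the opposite strand (4.81 FPKM in KO1).

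Among the 16 mitosis genes tested, 7 were higher in NC1 and 1 was lower, with a median log2 difference of 0.19, which was 0.12 without KO1 replicate 3; this count was 6 and 3 for trimmed-mean values, 7 and 1 for quantile-normalised ones and 9 and 1 without the mitochondrial genes. Aurora kinase B, AURKB (ENSG00000178999, chromosome 17, 8204733 to 8210600, minus strand), the kinase of the chromosomal passenger complex that corrects spindle attachments, was at 23.8, 23.5 and 23.2 FPKM in KO1, at 57.2, 59.3 and 51.4 in NC1 and at 53.3, 52 and 48.5 in NCO. The lowest NC1 library lay far above any KO1 library, and the NC1 and NCO ranges overlapped. The log2 difference was 1.21 (95% interval 1.08 to 1.34, adjusted p = 3.6e-08), a ratio of 2.38. Its partner BIRC5 (survivin) averaged 44.2 ± 2.73 FPKM in KO1 and 45.7 ± 3.92 in NC1 (adjusted p = 0.603), and its relative AURKA, which acts at spindle poles, fell from 29, 29.3 and 30 FPKM to 21.4, 23.2 and 25.8 (log2 difference -0.32, adjusted p = 0.00191). The Aurora kinases were thus called in opposite directions, under every alternative run.

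Higher in NC1 were also TOP2A, the topoisomerase that untangles sister chromatids, at 24.6, 26.1 and 23.6 FPKM in KO1 and 32.5, 32.1 and 37.6 in NC1 (log2 difference 0.44, adjusted p = 0.000612), and the spindle motor KIF11, at 5.11, 5.47 and 4.25 and then 6.95, 6.89 and 7.23 (0.44, adjusted p = 0.0011). Neither gene's groups overlapped. The proliferation antigen MKI67 (11.4 ± 0.439 to 14.7 ± 1.22 FPKM), the checkpoint kinase BUB1 (14.7 ± 0.341 to 18.6 ± 0.55), the Aurora A activator TPX2 (34.1 ± 0.759 to 42.3 ± 2.07) and the cytokinesis motor KIF20A (13.3 ± 0.635 to 15.5 ± 0.0839) rose by log2 differences of 0.21 to 0.34, and only KIF20A lost its call in any alternative, that with trimmed-mean scaling. The genes not called were PLK1, BUB1B, CENPA, CENPF, KIF23, CDC20, BIRC5 and UBE2C, with adjusted p from 0.0619 for CENPF to 0.949 for CENPA. CENPE, not tested, was at 0.792, 0.97 and 0.792 FPKM in KO1 and 0.875, 1.29 and 1.39 in NC1, which overlap.

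Of the cyclins and kinases, CDK4 (ENSG00000135446, chromosome 12, 57747727 to 57756013, minus strand), the partner of D-type cyclins, was at 110, 113 and 112 FPKM in KO1, at 74.2, 83.5 and 83.6 in NC1 and at 72, 71.1 and 69.5 in NCO. The groups did not overlap in any pair, and NC1 was lower than KO1 by -0.47 on the log2 scale (95% interval -0.58 to -0.36, adjusted p = 2.25e-05). CDK4 shares 2493 bases with TSPAN31 (8.49 FPKM in KO1, 7.92 in NC1) and 911 with MARCHF9 (11.9 and 10.4) on the opposite strand. Its cyclin CCND3 went up from 111, 112 and 111 FPKM to 130, 130 and 140 (log2 difference 0.26, adjusted p = 0.000486). CCNE1, which activates CDK2, went up from 15, 14.2 and 13.8 to 20.8, 19.8 and 19.5 (0.46, adjusted p = 0.000143), without overlap. CDK2 (28.5 ± 1.65 and 27.9 ± 2.05), CCND2 (0.746 ± 0.101 and 1.05 ± 0.0923) and CCNE2 (2.42 ± 0.362 and 2.7 ± 0.459) were not called. CCNE2 shares 1977 bases with INTS8 on the opposite strand, which is higher than CCNE2 itself (8.18 FPKM in KO1, 10.8 in NC1).

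At the G2/M step the mitotic cyclin CCNB1 (ENSG00000134057, chromosome 5, 69167135 to 69178245) was at 49.5, 49.2 and 43.3 FPKM in KO1, at 36.2, 35.1 and 39.1 in NC1 and at 32.7, 33.2 and 33.1 in NCO, each group separate from the others. NC1 was lower than KO1 by -0.35 on the log2 scale (adjusted p = 0.000658). Its kinase CDK1 was called higher (27.2 ± 2.13 to 32.7 ± 3.92 FPKM, adjusted p = 0.0365), without overlap between groups. The call was lost without NC1 replicate 3, at 37.2, and in 5 other alternatives, among them without KO1 replicate 1 or 3 (highest adjusted p = 0.134). CCNB2 (37.1 ± 0.75 and 35.9 ± 3.37) and CCNA2 (22.8 ± 0.698 and 20.6 ± 2.12) were not called. The count of 1 higher and 1 lower at this step was 0 and 2 for trimmed-mean values and 1 and 2 for quantile-normalised ones. It was 1 and 1 without the mitochondrial genes and 0 and 2 without NC1 replicate 3.

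Of the transcription factors 3 of 4 were lower in NC1 and none higher; with mitochondrial genes removed 2 were lower. E2F1 (ENSG00000101412, chromosome 20, 33675477 to 33686385, minus strand), an activator of replication genes, was at 31.8, 31.5 and 35.4 FPKM in KO1, at 25, 24 and 24.4 in NC1 and at 23.2, 21.1 and 22.1 in NCO, with no overlap between groups. The log2 difference of NC1 from KO1 was -0.41 (95% interval -0.54 to -0.28, adjusted p = 0.000185). E2F2, a second activator, fell from 6.24 ± 0.127 to 5.16 ± 0.324 FPKM (adjusted p = 0.0152, a call lost without NC1 replicate 1 or 2, where it reached 0.0564), and MYBL2, the MuvB partner, from 131 ± 2.8 to 114 ± 7.33 (adjusted p = 0.0066, and 0.0758 with mitochondrial genes removed). FOXM1, the other late activator, was at 16.6 ± 0.156 and 16.3 ± 0.0751 FPKM (adjusted p = 0.741). By promoter, a CHR match was held by 4 of the 10 higher genes with a RefSeq entry, by 0 of the 11 lower ones and by 7 of the 11 not called, and an E2F match by 1, 7 and 4 of them. Higher and lower genes also differ in role, and roles differ in motifs. The part of role in these counts was not tested. Higher genes had a median longest coding transcript of 3555 bases and a median level of 24 FPKM, lower genes 2604 bases and 63.6 FPKM, and the higher and lower genes among all tested had 3284 and 2839 bases, with 6.67 and 14.2 FPKM; the part of length and level in the split was not tested.

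**Figure D2:**
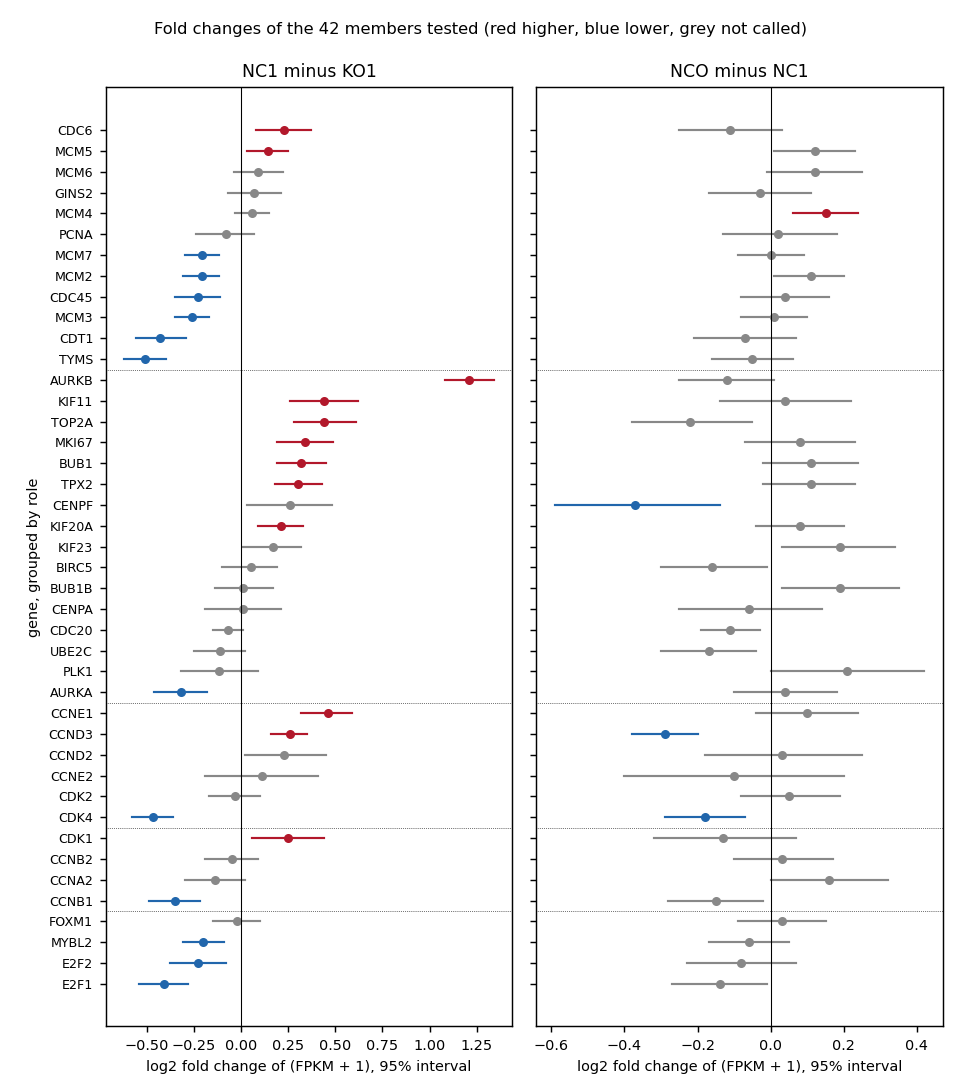
Points give the difference of group means of log2(FPKM + 1) for each of the 42 genes tested, with 95% intervals from limma, on the left for NC1 minus KO1 and on the right for NCO minus NC1 (the axes differ in range); red is called higher, blue called lower and grey not called. AURKB at 1.21 and TYMS at -0.51 mark the ends on the left, and 4 genes are called on the right.

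The rest of the pathway was read from lists that leave the 43 genes out. Of 59 other replication genes 13 were higher and 9 lower in NC1, and of 88 other mitosis genes 23 were higher and 6 lower, with median log2 differences of 0.08 and 0.11. These are 37.3% and 33% called, both under the 47.2% of all genes, of which 28.9% were higher and 18.3% lower. The single-strand binding protein RPA1 (15.8 ± 1.12 to 22.9 ± 1.64 FPKM, adjusted p = 9.45e-05) and the microtubule protein NUSAP1 (24.1 ± 1.5 to 37.7 ± 1.85, adjusted p = 1.32e-05) rose. The ubiquitin-conjugating enzyme UBE2S of the anaphase-promoting complex fell from 132 ± 2.64 to 104 ± 3.24 (adjusted p = 8.74e-05). Of 15 tested genes of the RB, E2F and MuvB families 0 were higher and 4 lower (26.7% called), among them TFDP1, the dimer partner of E2F proteins (45.7 ± 1.69 to 31.1 ± 0.676 FPKM, adjusted p = 9.13e-06), and the repressor E2F5 (3.25 ± 0.26 to 1.25 ± 0.0857, adjusted p = 8.86e-06). E2F5 shares 3111 bases with RBIS on the opposite strand, at 39 FPKM in KO1 and 45.2 in NC1, far above E2F5 itself. Reads in that overlap cannot be told apart, and its part in the E2F5 values was not tested. RB1 was at 6.53 ± 0.319 and 6.58 ± 0.636 FPKM (adjusted p = 0.944).

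Of 11 other cyclins, CDKs and CDC25 phosphatases 8 were higher and none lower, 72.7% called against 47.2% of all genes. CCND1 rose from 6.44, 6.26 and 6.99 FPKM in KO1 to 12.6, 11.7 and 12.9 in NC1, without overlap (log2 difference 0.83, adjusted p = 4.28e-06), and CDK6 went from 7.13 ± 0.156 to 8.63 ± 0.521 (adjusted p = 0.00915). CCND1 shares 1399 bases with LTO1 on the opposite strand (3.26 FPKM in KO1, 3.49 in NC1). CCND3 still gave 93.8% ± 0.288 of the summed FPKM of the 3 D-type cyclins in KO1 and 90.8% ± 0.339 in NC1. Among 6 tested CDK inhibitors 3 were lower and 1 higher (66.7% called). CDKN1B (p27) was at 9.38, 8.52 and 7.29 FPKM in KO1 and at 4.38, 4.56 and 5.53 in NC1 (log2 difference -0.69, adjusted p = 0.000193), and CDKN1A (p21), a p53 target, at 84.6 ± 2.13 and 76.4 ± 4.49 (-0.15, adjusted p = 0.0317). CDKN2C, an inhibitor of CDK4 and CDK6, was not called (77.3 ± 2.61 and 80 ± 6.77 FPKM, adjusted p = 0.637). CDKN2A and CDKN2B, not tested, were listed at no more than 0.128 and 0.0364 FPKM in any library.

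Of 6 checkpoint kinases 3 were higher in NC1 and none lower, 50% called and so near the 47.2% of all genes. The widest change of any gene on these lists was that of CHEK2 (ENSG00000183765, chromosome 22, 28687743 to 28742422), a kinase of the DNA damage response, at 17.3, 19.5 and 16.5 FPKM in KO1, at 59.8, 61.3 and 63.3 in NC1 and at 62.6, 58.8 and 59.6 in NCO. The log2 difference of NC1 from KO1 was 1.74 (SE 0.06, adjusted p = 2.04e-09). CHEK2 shares 384 bases with HSCB on the opposite strand (7.14 FPKM in KO1, 11.6 in NC1). Copies of CHEK2 named in the table (CHEK2P1 to CHEK2P5) were listed at 0, and reads shared with such copies cannot be told apart. ATM rose from 1.56 ± 0.0848 to 2.52 ± 0.522 FPKM (adjusted p = 0.00691). ATR, also counted as higher, was at 1.03, 0.972 and 0.776 FPKM in KO1 and 1.39, 1.27 and 1.4 in NC1; it passed the filter on low values through NC1 and NCO, the groups where it is high, so its call supports nothing.

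**Figure D3:**
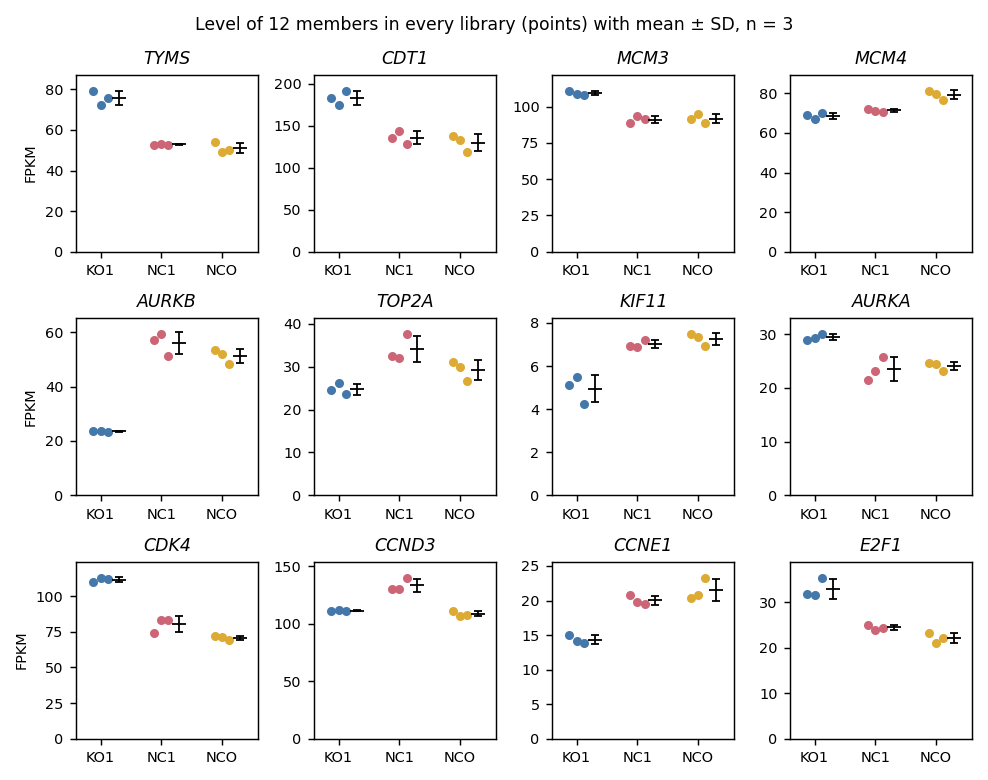
Points are the FPKM of 12 of the 43 genes in each library, coloured by group, with the mean and SD (n = 3) beside them; every axis starts at 0. The top line shows replication genes, the middle one mitosis genes and the lower one G1/S genes and E2F1; AURKB separates KO1 (23.2 to 23.8) from NC1 (51.4 to 59.3) and NCO (48.5 to 53.3).

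NCO against NC1 compares, by the labels, cells with and without the CD36 knockdown under decitabine, although CD36 itself was not lower in NCO. Few of the 43 genes differed. Of the 42 tested 1 was higher and 3 were lower, which is 9.52% against 14.7% of all genes (6.12% higher and 8.62% lower). The libraries did not overlap in 15 of the 42 (7 higher and 8 lower in NCO), a share near the 34.3% of all genes. Median log2 differences were 0.02 for replication and 0.04 for mitosis genes, against 0.01 over all genes; the first was -0.01 without NCO replicate 2, and the second 0.01 without NC1 replicate 1 and 0.07 without NCO replicate 3. Over all genes the share of calls that were higher was 41.5%, and 36.5% for trimmed-mean values, 53.7% for quantile-normalised ones and 69.9% without the mitochondrial genes.

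CCND3 was the steadiest of these calls. It was at 111, 107 and 108 FPKM in NCO, below the 130, 130 and 140 of NC1 and near the 111, 112 and 111 of KO1. The log2 difference of NCO from NC1 was -0.29 (95% interval -0.38 to -0.20, adjusted p = 0.00215; 0.00105 to 0.0524 over 17 alternatives, the highest after quantile normalization, the 1 that lost the call). CCND1, at 12.6, 12.4 and 11 FPKM in NCO, was not called against NC1 (adjusted p = 0.728). For the 3 D-type cyclins together, KO1 gave a sum of 119 ± 0.0566 FPKM, NC1 147 ± 6.1 and NCO 122 ± 2.55.

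The other calls were less steady. MCM4, at 81.4, 79.8 and 76.8 FPKM in NCO against 72.2, 71.1 and 70.8 in NC1, was called higher (log2 difference 0.15, adjusted p = 0.0338). The centromere protein CENPF, at 3.03, 3.3 and 3.41 FPKM against 4.34, 4.56 and 4.51, was called lower (-0.37, adjusted p = 0.0374). CDK4 was called lower at 72, 71.1 and 69.5 FPKM against 74.2, 83.5 and 83.6 (-0.18, adjusted p = 0.0373). None of these 3 overlapped between groups, yet the calls were lost in 9, 10 and 12 of 17 alternatives, with adjusted p up to 0.11, 0.124 and 0.176. Neither TYMS (log2 difference -0.05, interval -0.16 to 0.06) nor AURKB (-0.12, interval -0.25 to 0.01) was called, nor was any transcription factor or G2/M gene. E2F1 and CCNB1, with adjusted p of 0.125 and 0.117, were among the 8 genes whose NCO libraries all lay below those of NC1. In 7 others all lay above, and the share of genes without overlap was near that of all genes.

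Outside the 43 genes, 8 of 59 other replication genes were lower in NCO and 3 higher, 18.6% called against 14.7% of all genes. Thymidine kinase TK1 was at 100, 104 and 107 FPKM in NC1 and 85.1, 85.1 and 81.5 in NCO (log2 difference -0.3, adjusted p = 0.00161), the flap nuclease FEN1 at 54.7 ± 0.875 and 45 ± 0.419 (-0.28, adjusted p = 0.00231), and GMNN (geminin, the inhibitor of CDT1) at 8.44 ± 0.879 and 5.68 ± 0.446 (-0.5, adjusted p = 0.0088). Of 88 other mitosis genes 4 were higher and 7 lower (12.5% called). Of 15 RB, E2F and MuvB genes 4 were higher and none lower (26.7% called). These were RBL2 (13.2 ± 0.646 to 19 ± 1.07 FPKM, adjusted p = 0.00117), RB1 (6.58 ± 0.636 to 8.16 ± 0.414, adjusted p = 0.035), RBL1 (3.51 ± 0.0952 to 4.36 ± 0.138, adjusted p = 0.0337) and LIN54 (3.15 ± 0.2 to 4.13 ± 0.524, adjusted p = 0.0483), of which the first 3 code for the pocket proteins that hold E2F factors in check. The calls of RB1, RBL1 and LIN54 lie near the cut, and their fate under the alternatives is not given here. Over all genes, calls in this comparison fell from 1855 to 781 with no filter on low values. CDKN1A was at 64.6, 63.1 and 61.1 FPKM in NCO, below 73.2, 74.5 and 81.5 in NC1 (-0.27, adjusted p = 0.00605), and the inhibitory CDK1 kinase PKMYT1 at 43.8 ± 1.82 against 59.6 ± 4 (-0.43, adjusted p = 0.00265). PKMYT1 shares 4215 bases with PAQR4 on the opposite strand (24.8 FPKM in NC1, 26.7 in NCO).

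NCO against KO1 differs by the labels in both the knockdown and the drug, and it shares its libraries with the other comparisons, so it adds no independent evidence. Of the 42 genes 14 were higher and 13 lower, 64.3% against 52.2% of all genes (32.1% higher and 20.1% lower), with ratios of mean FPKM of 1.16 to 2.18 and 0.636 to 0.88. The libraries did not overlap in 28 of the 42, against 61.2% of all genes. Replication genes split into 3 higher (MCM4, MCM5 and MCM6) and 5 lower (MCM3, MCM7, CDT1, CDC45 and TYMS), with a median log2 difference of -0.08 that turned to 0.05, with 5 higher and 3 lower, when mitochondrial genes were removed. That scaling moved the median of all genes from 0.08 to 0.19. Mitosis genes split into 9 higher and 3 lower (AURKA, CDC20 and UBE2C), with a median of 0.22; the split was 7 and 4 for trimmed-mean values, 8 and 2 for quantile-normalised ones and 9 and 2 without the mitochondrial genes.

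Among the 42 genes tested, the widest falls were those of CDK4 (111 ± 1.18 FPKM in KO1 to 70.9 ± 1.23 in NCO, log2 difference -0.65, adjusted p = 2e-06), TYMS (75.9 ± 3.48 to 51.1 ± 2.62, -0.56, adjusted p = 5.73e-06) and E2F1 (32.9 ± 2.16 to 22.1 ± 1.03, -0.55, adjusted p = 1.99e-05). AURKB rose from 23.5 ± 0.271 to 51.3 ± 2.47 FPKM (1.09, adjusted p = 1.1e-07) and CCNE1 from 14.3 ± 0.618 to 21.5 ± 1.59 (0.55, adjusted p = 3.38e-05). CDC20 was called lower, at 262, 267 and 263 FPKM against 302, 304 and 294 (-0.18, adjusted p = 0.00159), but this turned to 0.04 after quantile normalization, and the call was lost with mitochondrial genes removed. Over the 17 alternatives the adjusted p of CDC20 ran from 0.000284 to 0.4. Its processed copy CDC20P1 was listed at 3.51 FPKM in KO1 and 3.96 in NCO. CCND2, counted as higher, was at 0.664, 0.858 and 0.717 FPKM in KO1 and 0.973, 1.13 and 1.2 in NCO; it passed the filter through NC1 and NCO, where it is high, so its call supports nothing, and that call was lost in 11 of 17 alternatives. Of the other lists, 20 of 59 replication and 31 of 88 mitosis genes were higher in NCO, with 11 and 10 lower, which is 52.5% and 46.6% called against 52.2% of all genes. Anillin, ANLN, of the cytokinetic ring, rose from 4.72 ± 0.639 to 10.3 ± 0.906 FPKM (0.98, adjusted p = 5.59e-06), and the centromere protein CENPM fell from 25.1 ± 1.68 to 15.3 ± 0.549 (-0.68, adjusted p = 2.39e-05). Of 15 RB, E2F and MuvB genes 5 were higher and 2 lower, of 11 other cyclins, CDKs and CDC25 phosphatases 6 and 1, and of 6 checkpoint kinases 3 and 1 (46.7%, 63.6% and 66.7% called). Of the CDK inhibitors 4 of 6 were lower and none higher, and CDKN1A was lowest in NCO (62.9 ± 1.77 against 84.6 ± 2.13 FPKM, -0.42, adjusted p = 4.6e-05).

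**Figure D4:**
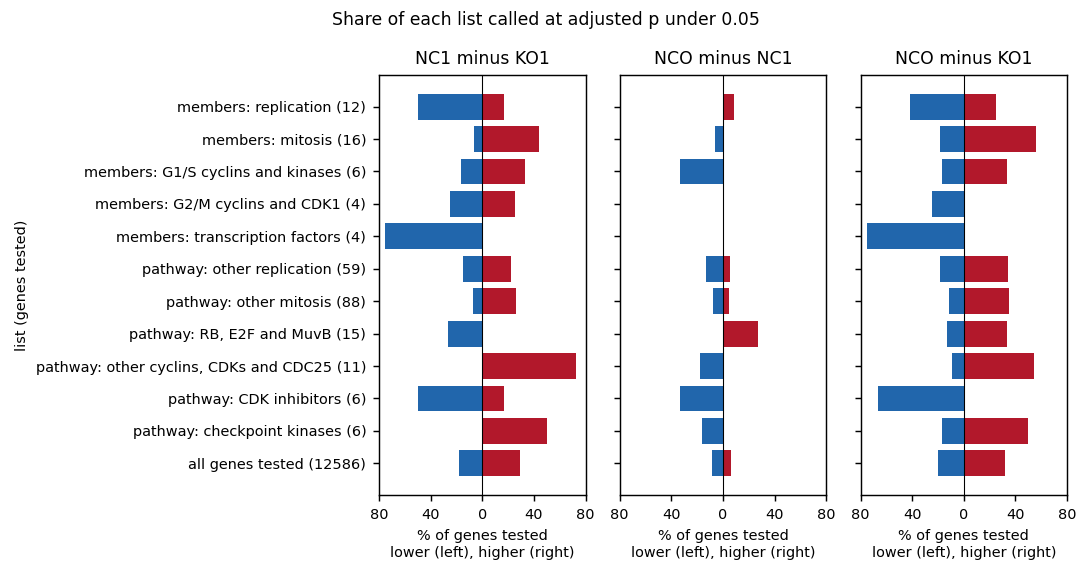
Bars give the percent of each list's tested genes called lower (left, blue) or higher (right, red) at an adjusted p under 0.05 in each comparison, with the number of genes tested in brackets; the lowest bar is all 12586 genes. In NC1 minus KO1 replication genes have 6 of 12 called lower and mitosis genes 7 of 16 called higher, beside 18.3% and 28.9% of all genes.

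**Figure D5:**
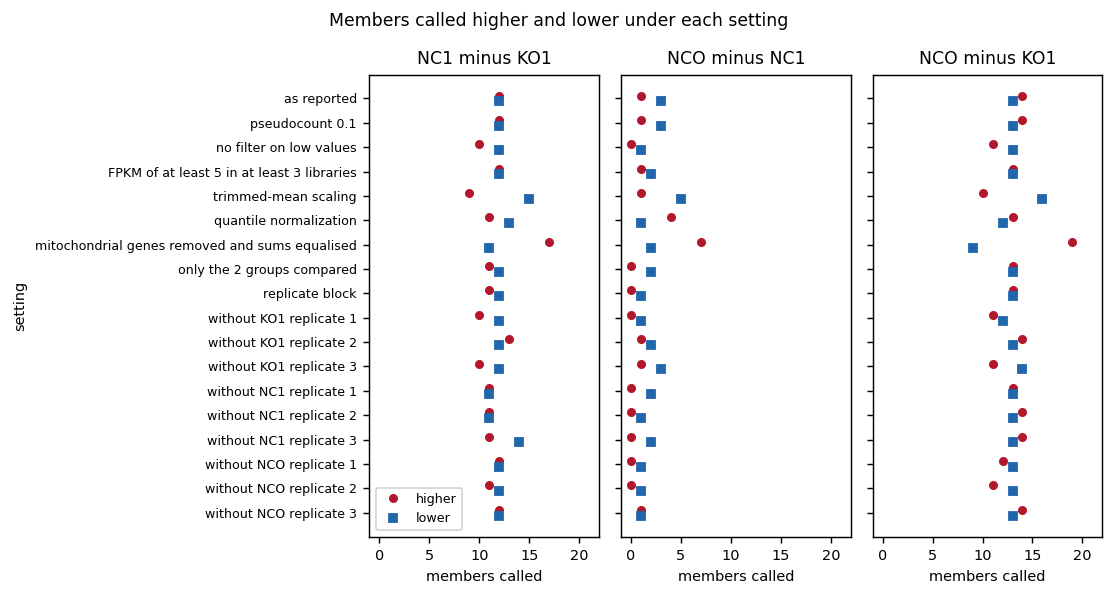
Points give how many of the 43 genes were called higher (red circles) and lower (blue squares) in each comparison, for the analysis as reported and for each of 17 alternatives. In NCO minus NC1 the counts are 1 and 3 as reported and range from 0 to 7 higher and from 1 to 5 lower.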

How the data were processed

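The 9 RNA libraries of MV4-11 cells (3 each of KO1, NC1 and NCO) came from Trizol RNA and an Illumina TruSeq kit, per the labels' protocols. The authors deposited 1 FPKM value per gene and library; the header does not name the unit, which was read from the values and from StringTie in the submitters' processing notes. These notes also list edgeR, HISAT2, FastQC, Trimmomatic, CASAVA 1.8 and GRCh38 as the build, without role or order; the annotation release and strandedness are not given in the sources used here. Further sheets of the workbook were not used. Low values shared no common step (at most 0.953% of low genes had the same ratio between a pair of libraries), so reads were not recovered, depth is unknown and no counting interval is given.

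Values were analysed as log2(FPKM + 1), and 12586 of 60612 genes, those at 1 FPKM or more in 3 or more libraries, were tested in 1 fit of all 9 libraries (limma 3.58.1, R 4.3.3, trend and robust empirical Bayes). Two-sided p-values were adjusted over all genes tested (Benjamini-Hochberg), with calls at an adjusted p under 0.05. The method was also run on simulated data with independent noise per gene and no filter on low values, and no result here rests on that run. The 17 alternatives changed the pseudocount (0.1), the filter (none, or FPKM of at least 5), the scaling (trimmed mean, quantile, mitochondrial genes removed), the samples in the fit, the replicate block, or left out 1 library. All 43 genes were eligible for naming, and of the other lists up to 4 genes per comparison with the smallest adjusted p, beside CDKN1A, CDKN1B, CDKN2C, RB1, CDK6, CCND1 and CD36. The genes and lists were chosen with earlier results of these data known, so no list was tested as a set.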

Additional observations from a re-analysis of the deposited data

How the results depend on the processing

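Among the 42 genes tested, 9 of 12 higher and 10 of 12 lower calls of NC1 against KO1 held under all 17 alternatives, as did 0 of 4 calls of NCO against NC1 and 19 of 27 of NCO against KO1 (10 higher and 9 lower). The cause of each change below was not tested.

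In NC1 against KO1 the median log2 difference of replication genes (-0.15) was -0.22 with trimmed-mean scaling, -0.08 with mitochondrial genes removed and -0.18 to -0.12 with 1 library left out. That of mitosis genes (0.19) was 0.12 with trimmed-mean scaling and 0.1 after quantile normalization, and 0.12 to 0.22 with 1 library left out, lowest without KO1 replicate 3. Genes called higher fell from 3637 to 2356 at FPKM of at least 5, where fewer genes were tested.

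In NCO against NC1, 4 of the 43 genes were called (1 higher, 3 lower). With no filter on low values this was 1 (0 and 1), with 781 genes called in all (267 higher and 514 lower) in place of 1855 (770 and 1085). With only the 2 groups compared it was 2, with 0 higher and 503 genes higher in all. Trimmed-mean scaling gave 5 lower, quantile normalization 4 higher and 1 lower, and removal of mitochondrial genes 9 in all, with 7 higher and 1736 genes higher over the table. The median of replication genes (0.02) became 0.1 for quantile-normalised values, 0.08 without the mitochondrial genes and -0.01 without NCO replicate 2. With 1 library left out, 1 to 4 of the 43 genes were called (0 to 1 higher, 1 to 3 lower), with 908 to 1716 genes over the table (274 to 716 higher, 634 to 1037 lower) and medians of -0.01 to 0.03 for replication and 0.01 to 0.07 for mitosis genes.

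In NCO against KO1 the median of replication genes (-0.08) was -0.17 for trimmed-mean values, -0.03 for quantile-normalised ones and 0.05 without the mitochondrial genes, and that of mitosis genes (0.22) was 0.13 and 0.35 with the first and last of these. CDC20 turned from -0.18 to 0.04 after quantile normalization (adjusted p = 0.4; 0.000284 to 0.4 over the alternatives). Genes called higher fell from 4041 to 2440 at FPKM of at least 5, and genes called lower from 2527 to 1614 with mitochondrial genes removed.

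With the replicate number as a block, NCO against NC1 had 1 of the 43 genes called (0 higher, 1 lower), 506 genes higher over the table and 1389 called in all, while NC1 against KO1 and NCO against KO1 had 5618 and 6230 in all. Libraries of the same number did not deviate together (correlations of -0.101 to 0.08), so the numbers were not read as pairs.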
